A study of Mus musculus with 53 samples.

Results

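Early myogenic barcodes without a sarcomere programme were examined in single-cell transcriptomes of the mouse cerebellum at postnatal day 7. A barcode was taken as early myogenic when it carried at least 1 UMI (a counted transcript molecule) of 2 or more of the 5 early muscle genes Myod1, Myog, Cdh15, Mymk and Chrna1. It also had to carry UMIs of fewer than 5 of the 12 sarcomere genes Ttn, Neb, Myh3, Actc1, Acta1, Mybpc1, Ryr1, Klhl41, Tnnt3, Actn2, Myl1 and Tnnc2. Only barcodes with 1000 to 20000 UMIs and at least 500 genes were considered, and 2491 of 62348 such barcodes met the rule. Of these, 2464 came from the 6 mutant libraries and 27 from the 4 control libraries.

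Each library held dissociated and fixed cells of 1 cerebellum, with no pooling of animals. Insm1 mutants were Atoh1Cre; Insm1fl/fl (3 libraries) and their controls Insm1fl/fl (2 libraries). Tead1/2 mutants were Atoh1Cre; Tead1fl/fl; Tead2fl/fl (3 libraries) and their controls Tead1fl/fl; Tead2fl/fl (2 libraries). No control carried Cre, so no library shows the effect of the Cre allele alone. Atoh1Cre is active in the Atoh1 lineage, which in the cerebellum gives rise to granule neurons among other cells. Cells outside that lineage are not targeted, and the deletion was not checked by cell type. Library 1 of each group came from all lobules, and libraries 2 and 3 from tissue without lobules IX and X. The libraries were made by split-pool barcoding of fixed cells with the Parse Evercode kit, and the comparison addresses whether the granule lineage without these factors takes on muscle identity.

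In skeletal muscle formation, MyoD family transcription factors bind E-box sequences and drive progenitors out of the cell cycle. Myod1 acts early and marks committed myoblasts, and Myog drives their differentiation. Cdh15 is M-cadherin, an adhesion molecule of myoblasts and satellite cells, Mymk is the fusion protein myomaker, and Chrna1 is the alpha subunit of the muscle acetylcholine receptor. The sarcomere genes of the rule encode the contractile and triad proteins that appear as myotubes mature. Insm1 is a zinc finger repressor of neuroendocrine and neuronal progenitors, and Tead1 and Tead2 are the DNA-binding partners of YAP and TAZ.

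Across the series, 3409 to 8182 barcodes per library lay within the depth limits, and the deposited totals were 98416728 to 226631912 UMIs per library. None of the 2894626 deposited barcodes occurred in more than 1 library. Of the targeted genes, Insm1 stood at 6.42 to 15.5 CPM (UMIs of the gene per 1000000 UMIs) over all barcodes of the Insm1 mutants, against 54.0 and 56.2 CPM in their controls. Tead2 stood at 7.98 to 10.4 CPM in the Tead1/2 mutants against 29.5 and 30.6 CPM in their controls. Tead1 was higher in the Tead1/2 mutants (1311 to 1512 CPM) than in their controls (611 and 615 CPM), so the gene's total count does not check this deletion. The sexes were not balanced: the Y-linked Ddx3y stood at 43.1 CPM in Insm1 mutant 1 and at 55.2 and 56.8 CPM in Tead1/2 mutants 1 and 2, and at 0.267 CPM or less in the other 3 mutants, in which Xist stood at 1023 CPM or more. Among the controls, Ddx3y stood at 47.8 CPM in Insm1 control 2 and at 0.281 CPM or less in the others.

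Early myogenic barcodes made up several percent of every mutant library and less than 1% of any control library. In Insm1 mutants 1, 2 and 3 they were 371, 482 and 310 barcodes, or 6.22%, 7.94% and 9.09% of the library (95% Wilson intervals 5.63 to 6.86, 7.29 to 8.65 and 8.17 to 10.1). In Tead1/2 mutants 1, 2 and 3 they were 259, 561 and 481 barcodes, or 3.98%, 8.03% and 8.31% (3.53 to 4.48, 7.41 to 8.69 and 7.63 to 9.05). Tead1/2 mutant 1 was the lowest of the mutants, and library 1, from all lobules, was the lowest of both mutant groups. The Insm1 controls held 23 and 2 such barcodes (0.281% and 0.0308%), and the Tead1/2 controls 0 and 2 (0 of 7895, which allows a share of up to 0.0380% at 3 counts, and 0.0396%). The intervals and the limit cover counting error only.

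The mean share was 7.75% ± 1.45 (SD, n = 3) in Insm1 mutants and 0.156% ± 0.177 (n = 2) in their controls, and all 3 mutants lay above both controls (difference 7.59 percentage points, exact two-sided permutation p = 0.2, the smallest that 3 against 2 libraries allow). It was 6.77% ± 2.43 (n = 3) in Tead1/2 mutants and 0.0198% ± 0.0280 (n = 2) in their controls (difference 6.75 points, exact permutation p = 0.2, again the smallest possible). The 5 early genes of the rule were known to be higher in mutants, so these shares against controls are a description of the rule. The genotypes' shares overlapped, and the difference of 0.977 points between Insm1 and Tead1/2 mutants was within the spread between libraries (exact permutation p = 0.7). For thinning, barcodes with at least 2000 UMIs were reduced to 2000, and the 1357 shallower ones were left out. Thinning also removes UMIs of sarcomere genes, so barcodes with 5 or more of them can then meet the rule. In the sarcomeric muscle-like clusters, 92 of 2786 mutant barcodes met it after thinning and 20 of 2865 before. After thinning, the shares were 2.78%, 3.03% and 3.35% in the Insm1 mutants and 2.06%, 4.73% and 4.65% in the Tead1/2 mutants. The shares were 0 in all 4 controls. Without the upper limit of 20000 UMIs, they were 7.42% to 10.7% in the Insm1 mutants and 0.990% and 0.640% in their controls, and 4.02% to 8.44% in the Tead1/2 mutants and 0.0207% and 0.0624% in theirs. Without Tead1/2 mutant 1, the difference between the genotypes turned to -0.421 points.

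**Figure D1:**
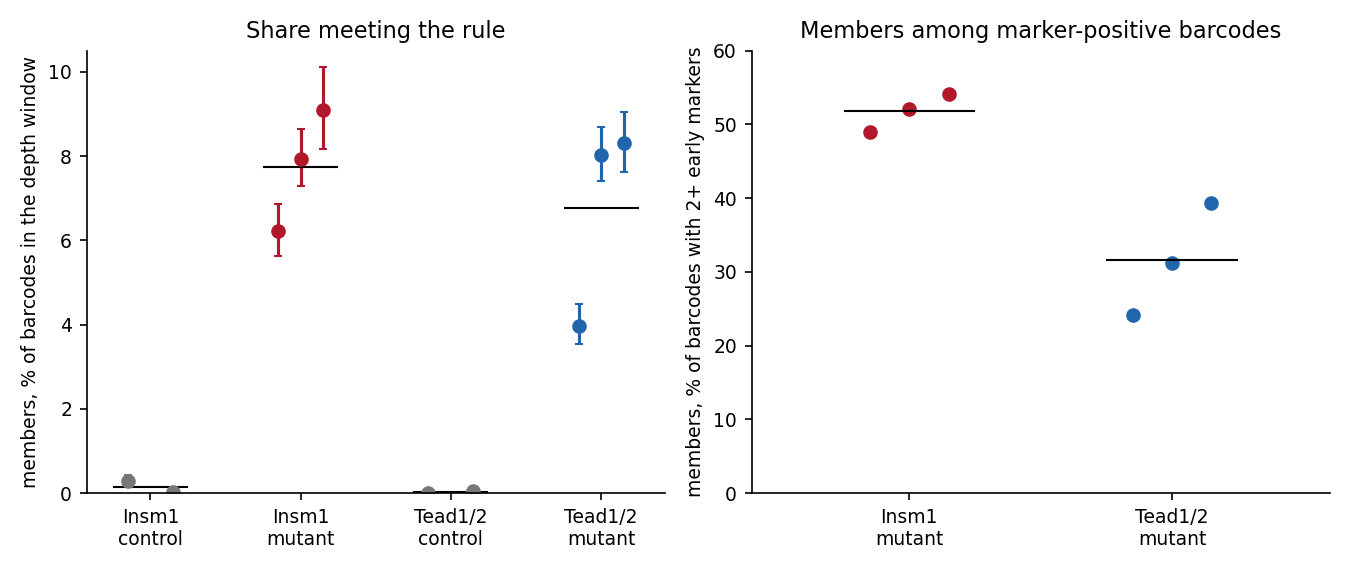
Share of early myogenic barcodes in each library (left, percent of all barcodes within the depth limits, with 95% Wilson intervals and a line at each group's mean) and among marker-positive barcodes of each mutant library (right, percent). The 6 mutants sit between 3.98% and 9.09% and the 4 controls at or below 0.281% on the left, and the 3 Insm1 mutants sit above the 3 Tead1/2 mutants on the right.

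The balance between early and sarcomeric barcodes differed more. Marker-positive barcodes are those with 2 or more of the 5 early genes, and those with 5 or more sarcomere genes are called sarcomeric here. Both groups are set by the rule's genes, so their balance is a description. Sex and strain background were also not balanced between Insm1 and Tead1/2 mutants, so their part cannot be told apart from that of the deleted genes. Early barcodes were 49.0%, 52.1% and 54.2% of the marker-positive barcodes in Insm1 mutants 1, 2 and 3. They were 24.2%, 31.2% and 39.3% in Tead1/2 mutants 1, 2 and 3, so that the genotypes did not overlap. The means were 51.8% ± 2.61 and 31.6% ± 7.56 (SD, n = 3 each), a difference of 20.2 points with an exact permutation p of 0.1, the smallest that 3 against 3 libraries allow. The shares themselves followed the rule, at 30.5% to 36.7% against 10.48% to 20.9% with fewer than 3 sarcomere genes, 30.3% to 36.5% against 10.6% to 24.9% with at least 3 early genes, and 63.8% to 66.3% against 38.6% to 58.1% after thinning to 2000 UMIs. Sarcomeric barcodes were 6.47% to 7.69% of the Insm1 mutant libraries and 12.4% to 17.7% of the Tead1/2 mutant libraries. Early and sarcomeric barcodes differ in depth, with medians of 5610 to 8406 and 9196 to 10686 UMIs per library, and a deeper barcode passes the limit of 5 sarcomere genes more readily.

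Most members carried some sarcomere transcripts. Of the 2464 mutant members, 2193 (89.0%) carried a UMI of at least 1 sarcomere gene. The numbers with 0, 1, 2, 3 and 4 sarcomere genes were 271, 514, 575, 555 and 549, and just outside the limit were 542 barcodes with 5 and 600 with 6. No gap separated the members from the sarcomeric barcodes at the limit. On the side of the early genes, 1665 members carried 2 of the 5, 605 carried 3, 170 carried 4 and 24 carried all 5, while 4023 barcodes with only 1 lay just outside.

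**Figure D2:**
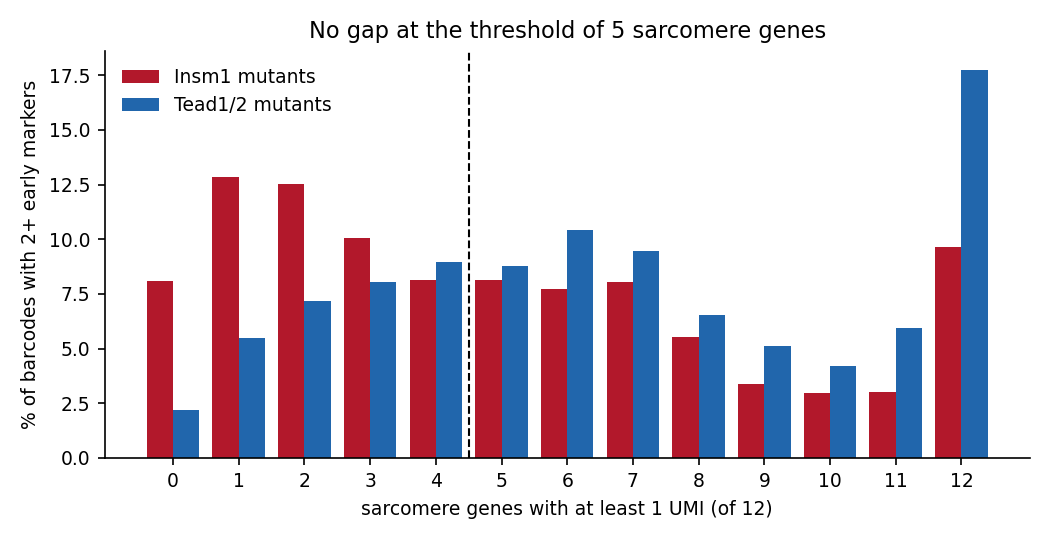
Number of the 12 sarcomere genes detected per barcode (horizontal axis) among mutant barcodes with at least 2 early markers (vertical axis, percent of those barcodes; Insm1 mutants red, Tead1/2 mutants blue). The dashed line marks the limit of the rule, and the distribution runs through it without a gap, with a second group of barcodes that carry all 12 genes.

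Values of genes outside the rule changed along this count of sarcomere genes, and are given as a description, since depth and the rule's genes move with it. Mki67, a proliferation antigen, stood at 1180.0 ± 187 CPM (SD over the 6 mutant libraries) in members with no sarcomere gene and at 399 ± 109 CPM in members with 4. Cdkn1c, which encodes the cell cycle inhibitor p57, went the other way, from 219 ± 83.6 to 1305 ± 374 CPM. Lincmd1, a long noncoding RNA of muscle differentiation, stood at 229 ± 79.8 and 1586 ± 116 CPM. Megf10, a receptor of satellite cells, stood at 378 ± 88.2 and 1646 ± 135 CPM, and Trim55, a sarcomere-associated ubiquitin ligase, at 38.5 ± 16.1 and 514 ± 135 CPM. The granule progenitor factor Barhl1 stood at 93.1 ± 21.4 and 38.6 ± 7.77 CPM. Among the early genes themselves, Myod1 was at 111 ± 13.5 CPM in members with no sarcomere gene and 41.7 ± 10.4 CPM in members with 4, while Myog was at 102 ± 31.4 and 464 ± 117 CPM.

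The regulatory sequence next to the start of the chosen genes is shown because E-boxes (CANNTG, the same on both strands), the sites that MyoD family factors bind, lie in it. Of the 5 early genes, 3 have an entry in the RefSeq promoter table (build GRCm38.p6), and the 250 bases before each start are printed 5′ to 3′ on the gene's strand, with each CANNTG in capitals. Myog lies at chr1:134289754-134290003 on the plus strand, Cdh15 at chr8:122848124-122848373 on the plus strand and Chrna1 at chr2:73580339-73580588 on the minus strand.
Myog: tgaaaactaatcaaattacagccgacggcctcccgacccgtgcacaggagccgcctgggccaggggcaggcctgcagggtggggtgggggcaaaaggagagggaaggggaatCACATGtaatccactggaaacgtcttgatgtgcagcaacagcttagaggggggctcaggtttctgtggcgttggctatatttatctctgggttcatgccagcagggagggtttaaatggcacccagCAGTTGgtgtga
Cdh15: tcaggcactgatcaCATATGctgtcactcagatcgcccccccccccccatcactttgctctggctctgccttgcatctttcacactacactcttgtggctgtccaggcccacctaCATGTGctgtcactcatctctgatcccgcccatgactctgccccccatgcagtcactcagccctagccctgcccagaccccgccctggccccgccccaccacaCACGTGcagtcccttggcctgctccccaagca
Chrna1: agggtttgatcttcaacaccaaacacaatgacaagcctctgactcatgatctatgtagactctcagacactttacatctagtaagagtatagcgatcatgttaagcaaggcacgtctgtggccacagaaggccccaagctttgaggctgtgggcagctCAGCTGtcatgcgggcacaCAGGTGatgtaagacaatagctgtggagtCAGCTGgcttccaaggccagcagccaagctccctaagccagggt

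Myog holds 2 CANNTG matches, starting 138 and 12 bases before the start. Cdh15 holds 3, at 236, 135 and 32 bases before it, and Chrna1 holds 3, at 92, 73 and 44 bases before it. At least 1 match occurs in 66.2% and at least 3 in 12.2% of 32851 mouse promoters of the same length. The TEAD motif CATTCC, searched on both strands and found in 12.6% of those promoters, does not occur in these 3 windows. A match is a match of letters only, since no binding was measured.

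The early genes chose the members, so their levels there are a description. Myod1 stood at 74.7, 72.7 and 72.0 CPM in the members of Insm1 mutants 1, 2 and 3 and at 51.2, 60.4 and 69.0 CPM in those of Tead1/2 mutants 1, 2 and 3. Myog stood at 313, 295 and 307 CPM and at 178, 298 and 294 CPM in the same order. The low value of both genes belonged to Tead1/2 mutant 1. Cdh15 stood at 106, 117 and 136 CPM in Insm1 mutants and at 160, 152 and 161 CPM in Tead1/2 mutants. Mymk stood at 77.6, 73.1 and 60.9 CPM and at 92.3, 79.6 and 89.8 CPM. Chrna1 stood at 13.5, 11.97 and 14.6 CPM and at 30.1, 24.9 and 19.9 CPM. For Cdh15, Mymk and Chrna1 the 3 Tead1/2 mutants lay above the 3 Insm1 mutants, and for Myod1 below them. These levels join the clusters described below. In progenitor-like clusters Cdh15 overlapped, at 147 to 193 CPM in Insm1 and 175 to 193 CPM in Tead1/2 mutants. Myog was higher in Insm1 mutants there (85.9 to 135 against 37.6 to 70.9 CPM). Mymk overlapped in the early myogenic-like cluster (186 to 245 against 174 to 231 CPM). The share of all genes that separate in this way is not given, and nothing is read from these orders. Cdh15 and Myog were the genes detected in most members, with a UMI in 62.5% to 80.5% and 60.2% to 76.0% of them per library, and Chrna1 in the fewest, 9.03% to 18.1%.

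The 12 sarcomere genes of the rule also chose the members, and their levels are a description. Ttn, the giant titin spring, averaged 789 CPM in members, 134 CPM in granule lineage barcodes of the same libraries with no early gene and 25975 CPM in sarcomeric barcodes. Actc1 (cardiac alpha-actin) averaged 173, 3.38 and 586 CPM, Klhl41 (a nebulin-stabilising protein) 91.4, 4.00 and 548 CPM, and Ryr1 (the calcium release channel) 87.2, 7.18 and 1051 CPM in the same order. Neb, Acta1, Tnnt3, Myl1 and Tnnc2 averaged at most 7.44 CPM in members and at most 11.6 CPM in granule lineage barcodes, against 209.6 to 1653 CPM in sarcomeric barcodes. Myh3, the embryonic myosin, averaged 40.5 CPM in members and 30.9 CPM in granule lineage barcodes, against 5380.0 CPM in sarcomeric barcodes.

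The barcodes were clustered without the skeletal muscle genes, and the members fell mainly into places of 2 kinds. An early myogenic-like cluster held 938 mutant members (38.1%), and 2090 of its 2091 barcodes came from mutants. Granule progenitor-like clusters held 906 (36.8%), nearly all in a pair of clusters (413 and 476 members) whose barcodes were 7303 from mutants and 28 from controls. Clusters left without a name held 205, 85 and 25 more, and their barcodes had median depths of 13233 to 14660 UMIs. Sarcomeric barcodes made up 59.8%, 52.0% and 58.9% of the mutant barcodes in these, and 30.5% in the early myogenic-like cluster. Clusters of other cell types held few members: 93 in GABAergic interneuron-like, 53 in granule neuron-like, 44 in astroglia-like, 29 in oligodendrocyte lineage-like and 25 in microglia-like clusters. Members there had median depths of 14198 UMIs or more, and 13.8% to 44.0% of them had a doublet score in the highest 10% of their library, a limit drawn over all barcodes of at least 1000 UMIs that 1.53% to 5.37% of the barcodes within the depth limits passed. In the unnamed clusters with 205, 85 and 25 members, 21.0%, 12.9% and 4% of the members had such a score. The part of doublets in those members was not tested. In the early myogenic-like cluster no member had such a score, and in the progenitor-like clusters 0.773% did.

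The members of both main places carried different early genes. In progenitor-like clusters, Myod1 was detected in 70.9% to 78.9% of the members per mutant library and Cdh15 in 82.4% to 94.3%. In the early myogenic-like cluster those shares were 14.6% to 34.1% and 48.6% to 70.1%. Myog ran the other way, with 21.1% to 50.4% in progenitor-like clusters and 80.3% to 100% in the early myogenic-like cluster. Mymk was detected in 4.27% to 16.9% against 54.0% to 69.6%, and Actc1 in 7.54% to 17.1% against 69.3% to 80.7%. Of the other sarcomere genes, Klhl41 (5.15% to 14.1% against 47.1% to 57.7%), Ryr1 (9.86% to 22.6% against 30.5% to 39.1%) and the Z-disc protein Actn2 (5.13% to 12.1% against 13.6% to 20.9%) were also detected more often in the early myogenic-like cluster. Mybpc1, a myosin-binding protein, went the other way, with 10.3% to 25.4% against 1.43% to 8.76%. Ttn was detected in overlapping shares, 38.1% to 68.8% against 43.7% to 70.3%.

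Which pair of genes admitted a barcode differed accordingly. Of the 906 members in progenitor-like clusters, 67.5% carried Myod1 with Cdh15 and 2.98% carried Myog with Mymk. Of the 938 in the early myogenic-like cluster, 12.7% carried the first pair and 58.3% the second. Members in progenitor-like clusters carried 1.499 sarcomere genes on average and those in the early myogenic-like cluster 2.79, at median depths of 8210 and 5258 UMIs.

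**Figure D3:**
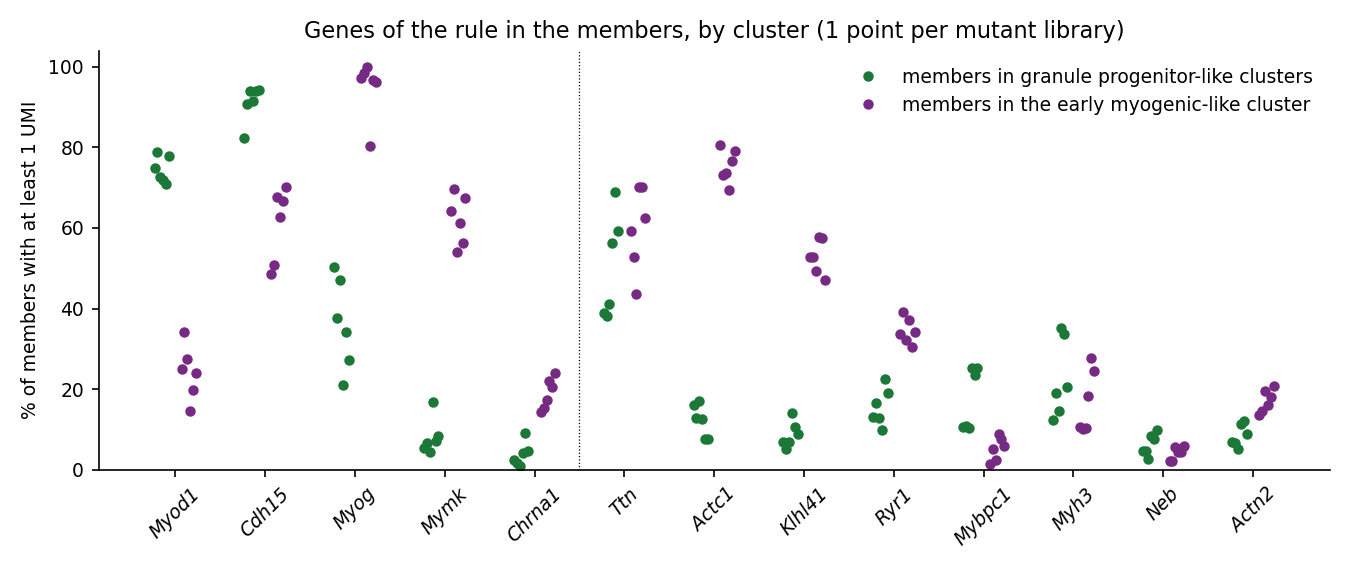
Percent of early myogenic members with at least 1 UMI of the rule genes shown (vertical axis) in granule progenitor-like clusters (green) and in the early myogenic-like cluster (purple), with 1 point per mutant library. Myod1 and Cdh15 are detected more often in the progenitor-like clusters, and Myog, Mymk, Chrna1 and Actc1 in the early myogenic-like cluster, with no overlap between the groups of points for these 6 genes.

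Cycling and cell cycle exit genes also stood at different levels in these places. Mki67 was at 1216, 1333, 1029.9, 1598, 1403 and 1619.7 CPM in members of the pair of progenitor-like clusters in Insm1 mutants 1 to 3 and Tead1/2 mutants 1 to 3, and at 40.6 to 79.4 CPM in members of the early myogenic-like cluster. Cdkn1c was at 48.1 to 299 CPM in those members and at 1037 to 2924 CPM in members of the early myogenic-like cluster. Lincmd1 was at 137 to 279 CPM and at 2089 to 2669 CPM. None of the 3 genes overlapped between the places in any library. The clusters were drawn from these genes among others, so the values describe the clusters and are no test.

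The early genes were also detected, at lower shares, outside the places that hold most members. In the pair of progenitor-like clusters of the mutants, Myod1 was detected in 16.3% and Cdh15 in 32.99% of all barcodes, at a median of 6521 UMIs. In granule neuron-like barcodes of the same libraries the shares were 2.00% and 4.21% at a median of 6129 UMIs, with a median of 13368 UMIs in those with Cdh15. In granule neuron-like barcodes of the 4 controls they were 0.0483% and 0.193%, at a median of 5262.5 UMIs. The part of free RNA in these shares was not tested. In the other progenitor-like clusters of the mutants they were 3.93% and 6.23%, and in those of the controls 1.35% and 2.25%. After thinning to 2000 UMIs, 144 of 8991 progenitor-like (1.602%), 728 of 2067 early myogenic-like (35.2%) and 0 of 4111 granule neuron-like mutant barcodes met the rule, the last of which allows up to 0.0730% at 3 counts. Fibroblast-like, oligodendrocyte lineage-like and microglia-like barcodes met it in 0.853% (9 of 1055), 0.583% and 0.510%. Both genes also occurred together: in the pair of clusters Myod1 was detected in 25.7% of barcodes with Cdh15 (median 7437 UMIs) and in 11.7% of those without (median 6202 UMIs), so that both groups also differed in depth.

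Of the 27 members in controls, 23 came from Insm1 control 1. All but 1 of these 23 carried Myod1, 22 carried Cdh15 and 21 both, 3 carried Myog, and 12 carried no sarcomere gene. They were deep, with a median of 12375 UMIs against 6435 in the library, and 15 lay in progenitor-like clusters and 4 in GABAergic interneuron-like clusters. In the progenitor-like barcodes of that library Myod1 was detected in 2.54% of 3032 and Cdh15 in 4.58%, against 0.0456% and 0.319% of its granule neuron-like barcodes. In progenitor-like barcodes of Insm1 control 2, Myod1 was detected in 1.84% and Cdh15 in 2.30%, and in those of Tead1/2 controls 1 and 2 Myod1 was detected in 0.472% and 0.505% and Cdh15 in 0.881% and 0.858%. After thinning, none of 10467 progenitor-like control barcodes met the rule.

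To see what came with the early genes inside the granule lineage, members in the pair of progenitor-like clusters were compared with barcodes of the same clusters, libraries and depth that carried none of the 5 genes. Each mutant library gave 69 to 198 members and 135 to 214 comparison barcodes, whose counts were summed per library. Here and below, a gene is said to rise, fall or change where its adjusted p is under 0.05 by edgeR's quasi-likelihood test with Benjamini-Hochberg adjustment over all genes tested. Of 10270 genes, 2221 (21.6%) passed, 9.32% higher and 12.3% lower in members, and 1191 passed with DESeq2. The comparison was added after the data were seen, and it says what differed beyond the spread between libraries among barcodes picked by 5 genes. All values in the following 5 paragraphs are means over 6 libraries.

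Genes of granule neuron differentiation were lower. Of 27 listed genes, 24 could be tested, 18 fell and 1 rose, with a median log2 change of -0.71 against 0.00789 over all genes. Of all genes, 12.3% fell and 9.32% rose. Neurod1, a differentiation factor of granule neurons, was at 176 ± 37.7 CPM in members and 401 ± 73.8 CPM in the others (log2 change -1.24, SE 0.0632, adjusted p = 1.04e-14, lower in 6 of 6 libraries). Rbfox3, the NeuN antigen, was at 866 ± 88.5 and 1919.5 ± 116 CPM (-1.21, SE 0.0449, adjusted p = 3e-17). Stmn2, a microtubule regulator of growing neurites, was at 54.3 ± 15.6 and 158 ± 33.4 CPM (-1.57, SE 0.0879, adjusted p = 4.99e-14). Cntn2, an adhesion molecule of young granule axons, fell by 1.48, Snap25 of the synaptic fusion machinery by 1.18 and Neurod2 by 0.78 on the log2 scale. The exception was the semaphorin receptor Plxna2, which rose (645 against 352 CPM, log2 change 0.81). The 12 genes with the largest fall were picked outside the muscle lists, with at least 50 CPM in the higher group. Among them were the adhesion molecule Cntnap2 (61.9 against 247 CPM, -2.10) and the calcium channels Cacna1e (-1.61) and Cacna1c (432 against 1206 CPM, -1.59).

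Of 18 listed genes of the proliferating granule progenitor, all tested, 10 fell and 3 rose, against 12.3% and 9.32% of all genes. Ccnd2, the cyclin of these progenitors, was at 381 and 558 CPM (-0.62), Barhl1 at 96.4 and 126 CPM (-0.45) and the hedgehog effector Gli2 fell by 0.38 on the log2 scale. Atoh1, the factor that founds the lineage, the hedgehog receptor Ptch1 and Mycn did not pass the test, with log2 changes of 0.13, 0.05 and 0.08. Of those that rose, Rgs16, a regulator of G protein signalling, was at 30.01 and 3.67 CPM (log2 change 3.00), and the hedgehog-binding protein Hhip was at 27.7 and 12.6 CPM (1.02; 0.71 with an adjusted p of 0.0601 without Tead1/2 mutant 3). Gli1 also passed (44.6 and 34.4 CPM, 0.38), but not without any one of 4 of the libraries or with DESeq2. Of 30 replication and mitosis genes, Bub1b rose (0.28) and Hells (-0.29) and Pola1 (-0.17) fell, and none of the 3 passed with DESeq2. Mki67 was at 1367 ± 226 and 1201 ± 70.5 CPM (0.12, adjusted p = 0.0737). This list depended on depth matching: 19 of the 30 passed as higher in members without it, and 4 did without TMM scaling or without the highest doublet scores.

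Cell cycle exit genes and the Notch pathway were raised in part. Of 10 tested cell cycle exit genes among 14 listed, 4 rose and 1 fell, against 9.32% higher and 12.3% lower of all genes. Cdkn1c was at 180 ± 102 and 30.3 ± 9.57 CPM (log2 change 2.35, SE 0.119, adjusted p = 8.42e-15), and Cdkn1a, which encodes p21, at 29.3 ± 11.6 and 7.50 ± 1.73 CPM (1.79). Btg1 (0.80) and the retinoblastoma gene Rb1 (0.52) rose, and Cdkn1b, which encodes p27, fell (-0.29), a call lost with DESeq2 and without Insm1 mutant 2 or Tead1/2 mutant 2 (adjusted p = 0.224, 0.0668 and 0.0907). Of 13 tested genes of the Id, Hes and Notch list of 21, 5 rose and 2 fell. The Notch ligand Dll1 was at 27.6 and 7.47 CPM (1.86), the receptor Notch1 at 162 ± 20.3 and 53.7 ± 7.52 CPM (1.53, SE 0.0889, adjusted p = 9.58e-14), and the effector Rbpj at 564 and 326 CPM (0.72). Notch2 rose by 0.53 and Hes6, a Hes family member of neural and muscle progenitors, by 0.86 on the log2 scale (Hes6 missed the threshold with DESeq2). Dll3 (-0.69) and the ligand Jag1 (-0.41) fell, and Dll3 lost the call with DESeq2 (adjusted p = 0.214), without the highest doublet scores, and without Insm1 mutant 1 or 3 or Tead1/2 mutant 1 (adjusted p = 0.0858, 0.0903 and 0.109).

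Part of the muscle genes outside the rule rose in members. Many of the listed genes were too low to test in these clusters: 11 of 23 myogenic regulators, 12 of 18 fusion and membrane genes, 4 of 11 acetylcholine receptor and junction genes and 9 of 50 sarcomere and triad genes could be. Among them 7, 6, 3 and 5 rose, and 2 of the fusion list fell, against 9.32% higher and 12.3% lower of all genes. Since only genes high in some group could be tested, these counts describe the detected genes alone. Rbm24, an RNA-binding splicing factor of muscle, was at 64.4 ± 19.1 and 15.4 ± 4.99 CPM (log2 change 1.97), Mef2c at 513 and 301 CPM (0.71) and Mef2a at 338 and 213 CPM (0.59). Megf10 was at 368 ± 40.3 and 127 ± 46.0 CPM (1.52), and Jam3, an adhesion molecule, at 137 and 51.7 CPM (1.31). At the junction, Colq (the collagen tail of acetylcholinesterase) was at 63.6 and 11.6 CPM (2.58), Dok7 (the activator of the receptor kinase MuSK) at 25.8 and 4.58 CPM (2.52) and the receptor subunit Chrnb1 at 18.5 and 4.33 CPM (2.02). Trim55 was at 49.9 and 7.34 CPM (2.53) and Klhl31 at 55.3 and 12.4 CPM (2.21).

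The next ranking covers called genes outside the muscle lists with at least 50 CPM in the higher group and the same direction in every library. Among them Lincmd1 had the largest rise (199 ± 49.9 against 23.1 ± 11.3 CPM, log2 change 3.10). The transcription factor Sox8 (52.6 against 6.60 CPM, 2.90), the estrogen receptor Esr1 (92.1 against 12.1 CPM, 2.70), the actin crosslinker Flnc (101 against 21.6 CPM, 2.12) and the zinc finger factor Rreb1 (373 against 93.4 CPM, 1.93) followed with Pstpip2, Ppfia4, Stard13, Sntb1 and Inppl1, at log2 changes of 1.93 to 2.11. Of the deleted genes, their paralogs and cofactors, Tead4 was at 35.9 and 13.3 CPM (1.35) and Tead1 rose by 0.61, while Myt1, a zinc finger repressor of neural progenitors, was at 31.5 and 71.2 CPM (-1.27) and Rcor2 fell by 0.47. Of 7 tested YAP target genes 2 rose, against 9.32% of all genes, among them Amotl2 (0.61). Of 4 tested astroglial markers none rose, and Slc1a2 (-0.94) and Slc1a3 (-0.67) fell. The effect of carrying the early genes differed between Insm1 and Tead1/2 mutants for 64 genes (0.623%, of which 0.351% higher and 0.273% lower in Insm1 mutants), a count that was 13 without Tead1/2 mutant 3, 42 without Insm1 mutant 1 and 7 with DESeq2. Mki67 was among them, at a log2 change of -0.10 in Insm1 and 0.33 in Tead1/2 mutants (adjusted p of the difference 0.0157), and was picked out after its values were seen.

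**Figure D4:**
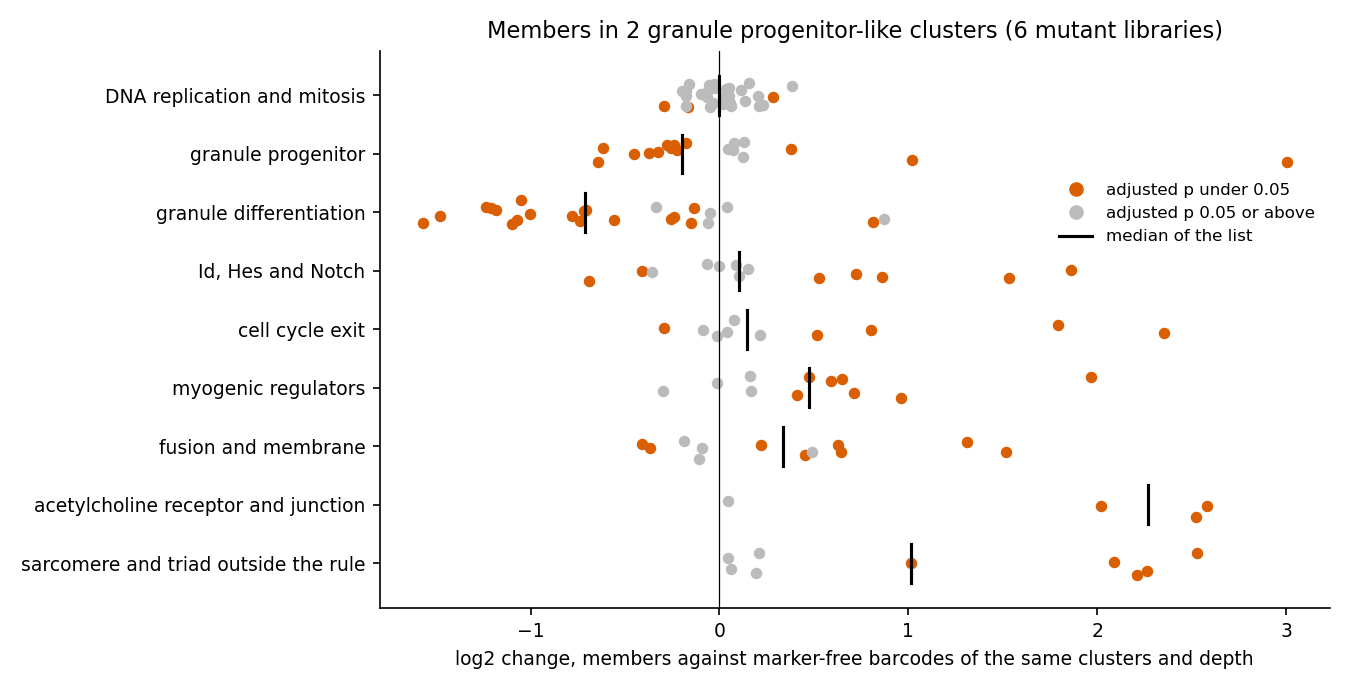
Log2 change of each tested gene (horizontal axis) between early myogenic members and marker-free barcodes of the same progenitor-like clusters, libraries and depth. Gene lists are on the vertical axis. Orange points passed an adjusted p of 0.05 and black bars are list medians: granule differentiation lies mostly below 0, with a median of -0.71, and the muscle lists mostly above it.

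All members together were next set against 9452 granule lineage barcodes of the mutants without early genes, and against the 3879 sarcomeric barcodes of the mutants. The rule and the clusters shape both contrasts, so the values are a description and nothing is read from the counts. Against the granule lineage 7247 of 12957 genes (55.9%) passed the same test, and against sarcomeric barcodes 7126 of 13073 (54.5%).

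Against the granule lineage, genes outside the muscle lists were ranked if they had at least 50 CPM in the higher group. The highest were the synaptic adhesion gene Elfn1 (65.5 against 0.909 CPM, log2 change 6.14) and Lincmd1 (904 ± 105 against 15.4 ± 5.97 CPM, 5.84). Frmpd1 and the zinc finger factor Casz1 (90.6 against 1.44 CPM, 5.79) came next. The receptor tyrosine kinase Alk stood at 474 ± 96.2 and 14.5 ± 4.72 CPM (4.96), the fructose transporter Slc2a5 at 51.6 and 1.09 CPM (5.39) and Rgs16 at 95.9 and 2.72 CPM (4.99). Of the regulators, Eya2, a transcriptional coactivator of muscle progenitors, stood at 85.6 and 1.77 CPM (5.55), its homeodomain partner Six4 at 32.3 and 1.65 CPM (4.20), and Rbm24 at 208 and 11.6 CPM (4.08). Of the fusion genes, Mymx (myomerger, the partner of myomaker) stood at 19.97 and 0.629 CPM (4.92), Megf10 at 1025 and 83.5 CPM (3.53) and Tmem182 at 18.7 and 0.464 CPM (5.05). The junction genes Chrnb1, Colq and Dok7 stood at 52.7, 103 and 61.0 CPM, with log2 changes of 4.06, 3.94 and 3.94. Of sarcomere genes outside the rule, Trim55 stood at 258 and 4.57 CPM (5.70), the slow troponin Tnni1 at 58.5 and 2.16 CPM (4.56) and the myosin chaperone Unc45b at 33.01 and 0.896 CPM (5.11).

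Cdkn1c stood at 805 ± 173 and 23.5 ± 5.46 CPM (4.98), Cdkn1a at 93.2 and 6.20 CPM (3.75) and Rb1 at 902 and 231 CPM (1.82), while Mki67 stood at 707 ± 102 and 701 ± 123 CPM (-0.11, adjusted p = 0.0698). For Mki67 the log2 change was -0.33 (adjusted p = 2.23e-05) against barcodes matched on depth and 0.23 (adjusted p = 0.00224) with fewer than 3 sarcomere genes. Notch1 stood at 210 and 32.1 CPM (2.58) and Dll1 at 59.8 and 4.42 CPM (3.63). Among the 12 genes with the largest fall in members were the vesicular glutamate transporter Slc17a6 (12.1 against 77.9 CPM, -2.78), Cntnap2 (138 against 735 CPM, -2.63), the growth factor Nrg1 (163 against 874 CPM, -2.56) and the NMDA receptor subunit Grin2b (156 against 696 CPM, -2.42). Neurod1 stood at 152 and 495 CPM (-1.85). Markers of other cell types moved with this contrast: 6 of 7 tested astroglial and 6 of 7 tested GABAergic interneuron markers were higher in members, against 28.7% of all genes. Their summed levels were 206 to 765 and 199 to 246 CPM in all members, but 75.4 to 101 and 23.4 to 52.1 CPM in members of the early myogenic-like cluster, against 187 to 321 and 78.8 to 95.6 CPM in granule lineage barcodes. Their part in the other genes of the contrast was not tested. Fibroblast and mural markers differed from these in that their summed levels were also high in the early myogenic-like cluster (474 to 1080 and 172 to 415 CPM), where the lists' genes include Igf2 and Abcc9.

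Against sarcomeric barcodes, the pooled members of all clusters stood higher in cell division genes. Mki67 stood at 707 ± 102 and 157 ± 31.7 CPM (log2 change 2.01), the kinetochore gene Knl1 at 145 and 31.7 CPM (2.02) and the spindle gene Aspm at 155 and 36.2 CPM (1.98), and all 30 replication and mitosis genes were higher, against 27.7% of all genes. Members of the early myogenic-like cluster differed from the pool: their Mki67 levels, given above, lay below the sarcomeric mean in every library. The other division genes are not given by place here. Barhl1 (1.502), Gli1 (1.97) and Neurod1 (0.78) were also higher in the pooled members. The limit on sarcomere genes fixed the direction of the mature muscle genes, many of which could be tested only because the sarcomeric barcodes hold them. All 42 tested of 50 sarcomere and triad genes outside the rule were lower, against 26.8% of all genes, and nothing is read from that count. Among them were desmin, Des (2.02 against 173 CPM, -6.62), the triad protein Trdn (2.05 against 390 CPM, -7.78) and muscle creatine kinase, Ckm (0.391 against 54.1 CPM, -7.11). The imprinted genes H19 (64.9 against 2944 CPM, -5.64) and Igf2 (357 against 4347 CPM, -3.81) were lower too. The acetylcholine receptor delta subunit Chrnd stood at 1.05 and 40.6 CPM (-5.47).

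The distance between early and sarcomeric barcodes varied widely among the other muscle genes. Megf10 stood at 1025 ± 137 and 1040 ± 79.4 CPM (-0.21, adjusted p = 0.0191) and Dok7 at 61.0 ± 8.66 and 61.5 ± 5.46 CPM (-0.20, adjusted p = 0.0398), and both lost the call under several alternatives. Colq stood at 103 and 117 CPM (-0.40), Rbm24 at 208 and 343 CPM (-0.92) and Cdkn1c at 805 and 1146 CPM (-0.70). Mymx (19.97 and 46.0 CPM, -1.35) and Trim55 (258 and 611 CPM, -1.44) stood lower, and Mef2c much lower (516 and 2637 CPM, -2.54). Of the early genes of the rule, Myod1 (66.7 against 37.3 CPM) and Cdh15 (139 against 93.9 CPM) were higher in the pooled members. Myog (281 against 369 CPM), Mymk (78.9 against 156 CPM) and Chrna1 (19.2 against 81.2 CPM) were lower in the pool. Within the early myogenic-like cluster, members averaged 716 CPM of Myog and 206 CPM of Mymk, above the sarcomeric means. Chrna1 averaged 45.4 CPM there, still below the sarcomeric mean.

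Members of the Insm1 mutants were last compared with those of the Tead1/2 mutants, 1163 against 1301 barcodes summed to 3 and 3 libraries. Sex and strain background were not balanced between these genotypes. Their part in the differences below cannot be told apart from that of the deleted genes. Of 12598 genes, 655 (5.2%) changed, 3.21% higher and 1.98% lower in Insm1 mutants, and 414 changed without Insm1 mutant 2 and 401 without Tead1/2 mutant 2. The mix of places differed: the early myogenic-like cluster held 28.1% to 37.7% of the members in Insm1 mutants and 38.9% to 52.9% in Tead1/2 mutants. The comparison was therefore repeated on the members of each place. In the pair of progenitor-like clusters 533 of 9942 genes (5.36%) changed, 2.45% higher and 2.91% lower in Insm1 mutants. In the early myogenic-like cluster 268 of 7628 (3.51%) changed, 1.4% higher and 2.11% lower. Within the pair the mix still differed. Insm1 mutants 1, 2 and 3 had 26, 62 and 29 members in 1 cluster and 100, 128 and 85 in the other. Tead1/2 mutants 1, 2 and 3 had 37, 135 and 124 members in the first and 32, 63 and 68 in the other. The part of this mix in the differences was not tested.

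Of the deleted genes, Insm1 and Tead2 were lower in members of the mutants that lack them, and Tead1 was higher in members of the Tead1/2 mutants. Insm1 stood at 7.60, 3.70 and 5.57 CPM in the members of Insm1 mutants 1, 2 and 3 and at 48.5, 103 and 93.3 CPM in those of Tead1/2 mutants 1, 2 and 3 (log2 change -3.93, SE 0.301, adjusted p = 4.49e-05). Tead2 stood at 63.1, 66.6 and 60.2 CPM and at 12.1, 10.7 and 6.35 CPM (2.79, SE 0.188, adjusted p = 4.49e-05). Over all barcodes of the controls, which carry no Cre, Tead2 stood at 62.7 and 61.5 CPM for Insm1 and 29.5 and 30.6 CPM for Tead1/2. Libraries without Cre thus differed in the same direction over all barcodes. The part of that difference in the one between members was not tested. Tead1 stood at 1505, 1437 and 1427 CPM and at 3723, 3384 and 3219 CPM (-1.22). All 3 genes passed the test in the same direction in both places.

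A few muscle and signalling genes differed without overlap between the libraries. Tnnt2, cardiac troponin T, stood at 29.4, 6.31 and 7.31 CPM in Insm1 mutants and at 118, 106 and 77.9 CPM in Tead1/2 mutants (-2.84, SE 0.391, adjusted p = 0.0016), and it also changed within the early myogenic-like cluster (-2.69). In granule lineage barcodes it was at 2.62 and 5.17 CPM. Tnni1 stood at 41.3, 42.0 and 40.4 CPM and at 83.4, 79.2 and 65.0 CPM (-0.84, adjusted p = 0.00177), and within the early myogenic-like cluster the log2 change was -0.53. Both troponins were lower in every Insm1 mutant than in every Tead1/2 mutant. Ptpn14, a phosphatase that binds YAP, stood at 15.2, 17.4 and 16.01 CPM and at 35.9, 35.4 and 34.4 CPM (-1.08, adjusted p = 0.00087), and it changed in both places (-1.23 and -1.70). With a limit of fewer than 3 sarcomere genes, Tnni1 and Ptpn14 had log2 changes of -0.96 and -0.80 and missed the threshold (adjusted p = 0.0608 and 0.103). Abcc9, the sulfonylurea receptor subunit of muscle potassium channels, stood at 98.1, 80.5 and 43.8 CPM and at 176, 161 and 139 CPM (-1.06), and it changed in the early myogenic-like cluster (-0.91) but missed the threshold in progenitor-like clusters (-0.81, adjusted p = 0.251) and with fewer than 3 sarcomere genes (-0.84, adjusted p = 0.0758).

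Notch genes moved in both directions. The ligand Jag1 stood at 26.1, 50.5 and 39.3 CPM in Insm1 mutants and at 80.7, 75.6 and 63.7 CPM in Tead1/2 mutants (-0.86, adjusted p = 0.0233), but within the early myogenic-like cluster at 23.0 and 23.3 CPM (-0.06, adjusted p = 0.974), and in granule lineage barcodes at 41.3 and 101 CPM. Notch2 stood at 272, 239 and 246 CPM and at 366, 345 and 347 CPM (-0.46), and changed within the early myogenic-like cluster (-0.80) but not in progenitor-like clusters (-0.27, adjusted p = 0.161). Hes6 stood at 29.7, 30.9 and 26.8 CPM and at 15.3, 20.01 and 18.2 CPM (0.71), with log2 changes of 0.83 (adjusted p = 0.125) in progenitor-like clusters and 0.87 (adjusted p = 0.047) in the early myogenic-like cluster. Jag1 lost the call without Insm1 mutant 3, Tead1/2 mutant 1 or Tead1/2 mutant 2 (adjusted p = 0.0715, 0.0568 and 0.0749), and Hes6 without Insm1 mutant 2 or Tead1/2 mutant 3 (0.0743 and 0.0545) and with fewer than 3 sarcomere genes (0.0886). Of 15 tested Id, Hes and Notch genes, 2 were higher and 2 lower in Insm1 mutants, against 3.21% and 1.98% of all genes.

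Cdkn1a stood at 122, 113 and 105 CPM in Insm1 mutants and at 72.3, 76.0 and 70.7 CPM in Tead1/2 mutants (0.66), and it was higher in Insm1 mutants in progenitor-like clusters (1.01) and in the early myogenic-like cluster (0.86). Chrnb1 stood at 75.3, 53.1 and 63.0 CPM and at 38.0, 41.3 and 45.5 CPM (0.62), and was also higher in both places (1.22 and 0.60). Without Insm1 mutant 1 or 3 or Tead1/2 mutant 1 or 2, Chrnb1 missed the threshold, with adjusted p of 0.0572 to 0.0989. Eya1, a relative of Eya2, stood at 60.1, 63.8 and 87.3 CPM and at 37.5, 34.1 and 36.8 CPM (0.99), with log2 changes of 0.57 (adjusted p = 0.117) in progenitor-like clusters and 1.03 (adjusted p = 0.0417) in the early myogenic-like cluster. Trim55 missed the threshold in all members (292 against 224 CPM, 0.41, adjusted p = 0.164) and passed it within each place (1.47 and 0.62). Of 25 tested sarcomere and triad genes outside the rule, 1 was higher and 5 lower in Insm1 mutants, against 3.21% higher and 1.98% lower of all genes. Of 18 granule progenitor genes none changed. Among 30 replication and mitosis genes, Kif11 was lower in Insm1 mutants (-0.63) and Mki67 was at 644 ± 92.9 and 769 ± 76.5 CPM (-0.23, adjusted p = 0.332).

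**Figure D5:**
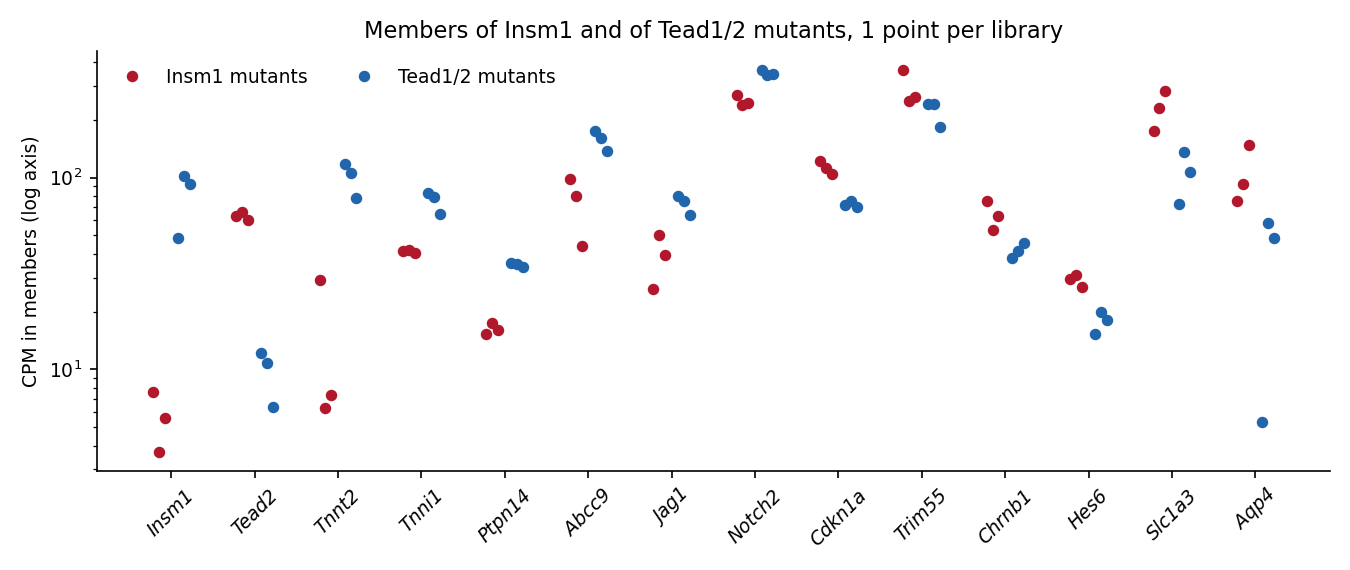
Level in early myogenic members (vertical axis, CPM, log scale) of named genes in Insm1 mutants and Tead1/2 mutants, with 1 point per library. Insm1, Tnnt2, Tnni1, Ptpn14, Abcc9, Jag1 and Notch2 lie lower and Tead2, Cdkn1a, Chrnb1 and Hes6 higher in the Insm1 mutants, with no overlap between the libraries.

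Astroglial markers moved with this comparison, in which 3.21% of all genes were higher in Insm1 mutants. Of 8 tested astroglial markers, 4 were higher in the members of Insm1 mutants: Slc1a3 (175, 232 and 284 CPM against 73.3, 136 and 107 CPM, 1.11), Fabp7 (2.34), Aldh1l1 (2.18) and Hopx, which lost the call with DESeq2 and without any one of Insm1 mutants 2 and 3 and Tead1/2 mutants 1 and 3 (adjusted p = 0.0551 to 0.0911). Their summed level was 449 to 765 CPM in Insm1 and 206 to 386 CPM in Tead1/2 mutants, with no list gene at 0. It was 96.7 to 153 and 182 to 210 CPM in members of the pair of progenitor-like clusters, and 80.0 to 96.8 and 75.4 to 101 CPM in members of the early myogenic-like cluster, and no astroglial marker was higher in Insm1 mutants in either place. The glutamate receptor subunits Gria1 (114 against 13.7 CPM, 2.92) and Grm3 (96.3 against 18.1 CPM, 2.48) and the matrix protein Tnc (135 against 21.9 CPM, 2.55) belong to the genes that were higher in all members of Insm1 mutants. The part of astroglial RNA in these differences was not tested, and Tnc stood at a log2 change of -0.63 in members of those progenitor-like clusters. An unnamed cluster in which Tnc, Aldh1l1, Gria1 and Aqp4 were among the leading genes held 5, 11 and 5 members from Insm1 mutants 1, 2 and 3 and 0, 4 and 0 from Tead1/2 mutants 1, 2 and 3.

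For other genes with large differences, the level in the granule lineage barcodes of the same libraries is given beside that in members. The chimaerin Chn2 stood at 237, 282 and 225 CPM in Insm1 mutants and at 91.3, 65.1 and 65.9 CPM in Tead1/2 mutants (1.80), with 695 and 226 CPM in granule lineage barcodes, and in the early myogenic-like cluster it was at 37.2 and 37.8 CPM (0.14, adjusted p = 0.928). The arginine methyltransferase Prmt8 stood at 6.82 ± 3.17 and 59.4 ± 2.01 CPM (-3.01), with 10.3 and 79.8 CPM in granule lineage barcodes. The neurotrophic factor Gdnf stood at 10.9, 25.2 and 20.9 CPM in Insm1 mutants and at 54.9, 56.9 and 47.3 CPM in Tead1/2 mutants (-1.42), with 11.02 and 21.3 CPM in granule lineage barcodes. Ablim3, an actin-binding protein, stood at 64.7 and 206 CPM (-1.66), with 30.5 and 46.3 CPM in granule lineage barcodes, and the semaphorin Sema3e at 17.3 and 64.3 CPM (-1.84), with 11.3 and 30.7 CPM.

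The step from granule lineage barcodes to members differed between the genotypes for 178 of 12957 genes (1.37%), and for 91 without Insm1 mutant 3 and 101 without Insm1 mutant 2. Tnnt2 had log2 changes of 2.19 in Insm1 and 4.19 in Tead1/2 mutants (adjusted p of the difference 0.0432), and Dok7 had 3.11 and 4.77 (adjusted p = 0.000712). For Ptpn14 and Ablim3 the differences were -0.98 and -1.17 (adjusted p = 0.0294 and 0.00104). Cdkn1c (-0.06), Megf10 (0.32) and Notch1 (0.03) did not differ beyond the spread between libraries, with adjusted p of 0.939, 0.635 and 0.972. Of the 25 tested sarcomere and triad genes 1 differed, and of 15 tested myogenic regulators 1 did. The step from sarcomeric barcodes differed for 112 of 13073 genes (0.857%), but for 43, 33 and 10 without Insm1 mutant 1, 2 or 3 and 31 without Tead1/2 mutant 3. Among the 112 was Cdkn1a (difference 0.57, adjusted p = 0.045).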

How the data were processed

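Unique transcripts were counted per gene and barcode in 10 split-pool single-cell libraries. The count matrices were used as the authors deposited them, with raw counts of transcripts for every barcode with at least 10 of them and no filter on cells. The gene tables name a GRCm39 annotation per the file headers. Which aligner and counter were used is not given in the sources used here.

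Barcodes with 1000 to 20000 UMIs and 500 or more genes were clustered with scanpy 1.11.5 and leidenalg 0.10.2 (counts normalised to 10000 per barcode, 2000 variable genes without the skeletal muscle lists, 30 components, 15 neighbours, resolution 1), and 34 of 41 clusters were named "-like" from marker lists (3 or more list genes had to exceed 1.5 times the average of all clusters, with UMIs in more than 10% of the cluster). Doublets were scored with Scrublet per library, whose own threshold marked at most 1 barcode in 2 libraries and 56.9% in another, so the score was used only to rank. Counts of the chosen barcodes were summed per library and tested with edgeR 4.0.16 in R 4.3.3 (TMM, filterByExpr, quasi-likelihood F test, Benjamini-Hochberg adjustment, called at 0.05), with the library as a block where 2 groups came from the same libraries. Values in CPM are UMIs of a gene per 1000000 UMIs of the summed barcodes. Standard errors were taken from the log2 change and the F statistic. Shares were compared with exact permutation tests in scipy 1.17.1. DESeq2 1.42.0, other filters, thinning, depth matching, doublet ranks and leaving out each library were alternatives.

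Tested on simulated counts with 200 changed genes, the fit recovered 92% of 2-fold and 99% of 4-fold changes for members against the granule lineage, and 75% and 95% for Insm1 against Tead1/2 members, with 17 and 10 false calls among 12957 genes. The simulated libraries shared a common mean per gene, and their spread came from a fit with a library term. Differences between animals were therefore not drawn, so recovery and false calls between the genotypes cannot be read from this simulation. Genes named outside the lists were the 12 with the largest rise and the 12 with the largest fall among called genes with at least 50 CPM in the higher group and the same direction in every library (no overlap between the 3 and 3 libraries for the comparison of the genotypes), and without the muscle genes. Genes of the lists were also named, by list. The text describes only part of the genes that this rule names. The members, the gene lists and the tests were chosen with earlier results of these data known. Library numbers 1 to 3 did not pair the samples: the correlations of the deviations of same-numbered Insm1 and Tead1/2 libraries were 0.0693, -0.0570 and 0.0373.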

Additional observations from a re-analysis of the deposited data

Results flagged for a closer look

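Among the genes picked for the largest rise or fall in members, 4 differed from their comparison barcodes by an amount that itself differed between Insm1 and Tead1/2 mutants. The test was the interaction term of edgeR's quasi-likelihood test with Benjamini-Hochberg adjustment over all genes. Other genes that passed it, such as Tnnt2, Dok7 and Mki67, are given above. Lincmd1 was raised over the granule lineage by a log2 change of 6.16 in Insm1 and 5.51 in Tead1/2 mutants (difference 0.653, adjusted p = 0.0259). The unnamed transcript 5430431A17Rik was raised by 6.50 and 4.90 (difference 1.598, adjusted p = 0.00635). Cntnap2 was lower than in the granule lineage by log2 changes of -2.24 and -3.02 (difference 0.778, adjusted p = 0.0161). Pkhd1 was lower than in sarcomeric barcodes by -5.23 and -6.04 (difference 0.807, adjusted p = 0.0195). Groups of 2 or 3 libraries were too small for a test of single outlying libraries.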

How the results depend on the processing

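The excess of early myogenic barcodes in mutants over controls kept its direction under every alternative run, but its size followed the rule. Every alternative used the same 5 early genes, which were known to be higher in mutants, so this direction is a description of the rule. The Insm1 and Tead1/2 differences were 3.05 and 3.81 percentage points after thinning to 2000 UMIs, 2.39 and 2.29 with at least 3 early genes, 4.91 and 3.17 with fewer than 3 sarcomere genes, and 5.94 and 3.98 in libraries of all lobules alone. Leaving out 1 library gave 6.92 to 8.36 and 5.98 to 8.15 points. The difference between Insm1 and Tead1/2 mutants turned to -0.757 after thinning, and ranged from -0.421 to 1.75 without 1 library. Members after thinning include barcodes that carried 5 or more sarcomere genes before it. The difference in the early share of marker-positive barcodes was 15.9 points after thinning, 15.8 with at least 3 early genes, 18.7 with fewer than 3 sarcomere genes and 15.4 without an upper limit on UMIs, and ranged from 16.5 to 24.0 points without 1 library.

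The 178 genes whose step from the granule lineage differed between genotypes became 110 with DESeq2, 477 without a filter on low counts, 109 without the highest 10% of doublet scores and 111 with fewer than 3 sarcomere genes (91 to 176 without 1 library). The 112 for sarcomeric barcodes became 585 without a filter, 13 without the highest doublet scores, 49 with depth matching and 260 with fewer than 3 sarcomere genes (10 to 161). In progenitor-like clusters, 2221 calls became 1191 with DESeq2 (1839 to 2135 without 1 library), and the 64 genes that differed between genotypes became 7 with DESeq2, 151 without a filter and 136 without depth matching (13 to 66). The 655 genes between Insm1 and Tead1/2 members became 1273 without a filter, 426 with fewer than 3 sarcomere genes and 268 in the early myogenic-like cluster (401 to 575). Fewer genes were tested in that cluster, and more without the filter, and otherwise the cause was not tested.

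Of 2831 recomputed values of single genes, 2682 kept their side of the threshold and their direction, 127 lost a call and 16 gained one. Of 490 recomputed counts of called genes in lists, 422 stayed within 1.5 times and 68 did not. The 6 gene values that reversed were Mki67 against the granule lineage (0.234, with fewer than 3 sarcomere genes), and, between Insm1 and Tead1/2 members, Tnc (-0.632), Gabrb1 (-0.0666) and Slc1a3 (-0.305) in progenitor-like clusters and Slc1a3 (-0.289) and Asic2 (0.617) in the early myogenic-like cluster. With the library number as a block, 715 genes differed between Insm1 and Tead1/2 members, and the share differences were 6.92, 5.98, 0.977 and, among marker-positive barcodes, 20.2 points. The library numbers share only the dissection and do not pair animals. Leaving out barcodes marked by Scrublet's own threshold was not run, because that threshold failed, and leaving out the highest 10% of scores, chosen after seeing the data, took its place.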
